A study of Drosophila melanogaster with 3 samples.

Results

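The genes of the epidermal growth factor (EGF) receptor pathway of Drosophila melanogaster were examined for binding of the protein encoded by CG30403. The list was set by name and holds 10 of the 13945 protein-coding genes on the main chromosome arms. They are the receptor gene Egfr, the ligand genes spi, Krn and vn, the ligand-processing genes rho and S, the inhibitor genes aos and sty, and the nuclear factor genes pnt and aop. Each gene was taken with 5 kb on each side, which is called its window here. Within it, the summits of the authors' list of reproducible ("optimal") chromatin immunoprecipitation peaks were placed at promoters, in introns or in the flanks. Binding was measured by sequencing in 1 group of 3 biological replicates. All were whole embryos of both sexes, aged 0 to 24 hours, from a transgenic line that stably expresses CG30403 with green fluorescent protein at its C terminus. The tag was precipitated with an anti-GFP antibody, and the promoter that drives the fusion is not named in the labels. Per the deposited text notes a control was used in calling regions, and no untagged line was analysed here. The optimal list held 7827 summits on build dm6.

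The EGF receptor is a receptor tyrosine kinase that signals through Ras and the MAP kinase cascade. In the fly embryo the pathway acts in the ventral ectoderm, the tracheae, the muscles and the nervous system. Its range is set by where active ligand is released and by inhibitors that the pathway itself switches on. Signalling ends in the nucleus on the ETS family proteins Pointed, an activator, and Yan, a repressor encoded by aop. Embryos of all stages and tissues were mixed in each replicate, so strong binding in few cells and weak binding in many cannot be told apart.

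No motif searched was common to the strongest summits of all members. The 9 windows printed here show the letters behind the strongest summit of spi, Krn, vn, rho, S, aos, sty, pnt and aop. Each runs over 101 bp centred on the summit, on the plus strand of dm6, read from the Release 6 assembly of RefSeq. Capitals mark a match, on either strand, to any of the 11 motifs searched.
spi, chr2L:19575698-19575798: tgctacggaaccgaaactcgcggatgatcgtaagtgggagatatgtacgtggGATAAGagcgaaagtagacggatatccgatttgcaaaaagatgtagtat
Krn, chr3L:17654380-17654480: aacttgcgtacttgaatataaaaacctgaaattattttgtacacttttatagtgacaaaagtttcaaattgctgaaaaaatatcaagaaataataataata
vn, chr3L:5828861-5828961: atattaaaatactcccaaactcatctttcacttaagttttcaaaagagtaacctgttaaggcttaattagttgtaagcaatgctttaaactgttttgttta
rho, chr3L:1464506-1464606: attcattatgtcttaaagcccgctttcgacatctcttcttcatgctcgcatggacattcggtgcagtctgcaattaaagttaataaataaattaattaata
S, chr2L:1075897-1075997: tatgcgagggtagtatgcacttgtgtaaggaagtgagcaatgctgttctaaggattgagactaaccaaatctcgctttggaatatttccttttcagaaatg
aos, chr3L:16480498-16480598: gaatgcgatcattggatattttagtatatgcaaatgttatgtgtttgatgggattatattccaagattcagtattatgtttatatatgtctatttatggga
sty, chr3L:3396229-3396329: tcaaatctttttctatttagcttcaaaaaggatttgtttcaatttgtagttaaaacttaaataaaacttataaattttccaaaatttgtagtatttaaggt
pnt, chr3R:23326439-23326539: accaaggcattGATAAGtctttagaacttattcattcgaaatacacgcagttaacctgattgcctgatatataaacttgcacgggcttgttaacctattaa
aop, chr2L:2180224-2180324: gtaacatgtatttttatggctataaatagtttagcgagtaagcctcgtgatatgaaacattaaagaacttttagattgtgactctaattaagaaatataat

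Of these 9 windows, 2 held a listed motif, GATAAG, the site of GATA factors, at spi and at pnt, and 7 held none. The strongest summit of Egfr, whose window is not printed, held GATAAG and another listed motif, TAAAAAA, within 50 bp. The GC content of the windows ran from 19.8% at sty to 44.6% at spi. Over all member summits the median was 31.7%, and over all optimal summits it was the same to this precision. GATAAG lay within 50 bp of 6 of the 57 member summits (10.5%), against 5.72% of all optimal summits. Within 25 bp it lay at 2 (3.51%, against 2.98%), so most of that difference was gone in the narrower window. Within 100 bp it lay at 11 (19.3%, against 10.5%), so the difference was kept in the wider window. The letters CGATA, bound by the insulator protein BEAF-32, lay at 4 (7.02% against 16.8%), and 1 of these 4 was part of TATCGATA, the site of DREF, found at 1 member summit (1.75% against 2.21%). TAAAAAA was found at 6 (10.5% against 14.0%), GAGAG, bound by GAGA factor, at 5 (8.77% against 8.38%), and the E-box letters CAGGTG at 3 (5.26% against 2.26%) and CAGCTG at 2 (3.51% against 3.45%). No member summit held CCGGAAG, a site of ETS family proteins such as Pointed and Yan, which 0.332% of all summits held. None held the Zelda site CAGGTAG (0.345% of all), the M1BP site GGTCACACT (0.741%) or the repeat CACACACA (0.869%). A count of 0 in 57 allows a share of up to 5.26%, above the shares of CCGGAAG and of each of these. Their absence therefore does not set the members apart. At least 1 of the 11 motifs was present at 23 member summits (40.4%), against 43.0% of all. All matches were counted on both strands, CGATA lies within TATCGATA and can overlap GATAAG, and matches describe letters, not sites in use.

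Every member had at least 1 optimal summit in its window, 10 of 10, where 62.6% of all protein-coding genes did. Among the 3654 genes at least as long as Krn, the shortest member at 4719 bp, the share was 76.1%. The 10 windows held 57 summits in 332.6 kb, which merge into 54 separate regions, and gave 17.1 summits per 100 kb against 6.59 over the windows of all protein-coding genes. The count per window ran from 1 at rho to 14 at pnt. In its own promoter, within 500 bp of an annotated transcription start site (TSS), 4 of 10 members had a summit: spi, Krn, aos and aop. The share was 30.2% over all protein-coding genes and 39.9% over those at least as long as the shortest member, so the members' promoter count lay near that of long genes. These counts are descriptions and carry no test.

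**Figure D1:**
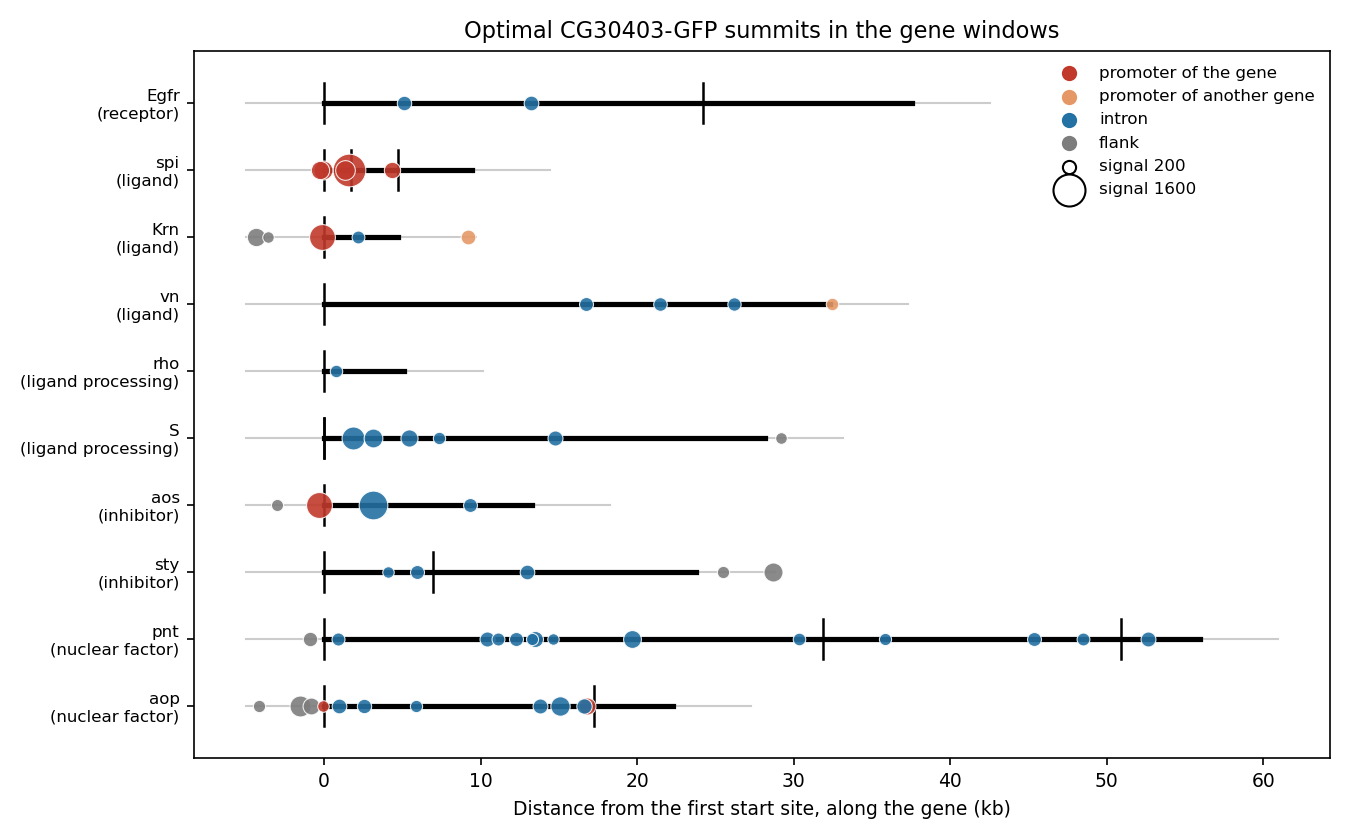
Optimal summits (circles, area growing with the authors' signal value) in each member's window, by distance in kb from the first start site along the gene. Black bars are genes, vertical ticks their start sites and grey lines the 5 kb flanks; red marks the gene's own promoter, orange another gene's promoter, blue introns and grey flanks, and 36 of the 57 circles are blue.

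Introns held most of the members' summits. Of the 57, 36 lay in introns (63.2%), which make up 54.1% of the windows. The members' own promoters held 9 (15.8% of summits in 5.13% of the windows). Upstream flanks held 7, downstream flanks 3, and promoters of other genes 2. No member summit lay in an exon outside promoters, although exons make up 10.8% of the windows. A count of 0 in 57 allows a share of up to 5.26%, and the share among all optimal summits was 1.35%. Together, own and other promoters took 11 of 57 summits (19.3%), while 46.0% of all optimal summits lay within 500 bp of a protein-coding TSS. The latter share covers the whole list and is not matched for length or make-up to the member windows. In these, own promoters make up 5.13% and promoters of other genes 6.97%, so the shares do not show that member promoters were poor in summits. Of the 36 intronic summits, 25 lay in the first intron of at least 1 annotated transcript. No share over all intronic optimal summits stands beside this count, so it only describes the members. The remaining intronic summits all lay in pnt, which held 13 of the 36, so this gene weighs heavily in both intron counts. The median distance of all 36 to the nearest own TSS was 5261 bp.

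The signal value of a peak is the authors' own score with no stated scale and ranks peaks within a list. Its median was 259.0 at member summits and 244.0 over all optimal summits, whose values ran from 128.9 to 6456. Of the 57, 6 were among the 1000 strongest (10.5%, against 12.8% of the optimal list), at spi, Krn, S, aos and aop. Signals were higher at own promoters (median 506.4) than in introns (median 235.7). Of the 9 own-promoter summits, however, 5 were at spi, and the weakest, at aop, had a signal of 133.9. The medians over the whole optimal list were 281.7 within 500 bp of a TSS and 220.4 elsewhere.

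The receptor gene Egfr had intronic peaks of moderate signal and none at its promoters. Egfr (FBgn0003731, 2R:21522420-21559977, plus strand) had 2 summits in a window of 47.6 kb, the lowest density of the members at 0.42 per 10 kb, and 38.2% of protein-coding genes had at least as many. Both were intronic and lay in an intron of the transcript that starts at the distal TSS. The upstream summit lay 5079 bp downstream of that TSS, with a signal of 259.0, and its region ranked 3063, 3803 and 4152 in replicates 1, 2 and 3. The downstream summit lay 11016 bp upstream of the proximal TSS, 1168 bp from the TSS of CG30286 inside the span of Egfr, with a signal of 270.9 and ranks of 6688, 3538 and 2888. Replicate 1 placed the latter region lowest and replicate 3 highest. The best region at the Egfr promoters in the pooled list, which also holds background regions, ranked 10096, and in the replicate lists the best ranked 12312, 17837 and 6370.

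Among the ligands, spi and Krn carried strong promoter peaks and vn did not. The gene spi encodes Spitz, the main activating ligand, which is made as a membrane-bound precursor. All 5 summits of spi (FBgn0005672, 2L:19567900-19577315, minus strand) lay within 500 bp of 1 of its 3 TSSs, and each lay upstream of it. The strongest of all member summits was among them, with a signal of 1676.4 and rank 114 of the optimal list. It lay 161 bp upstream of the middle TSS, and its region ranked 98, 121 and 124 in replicates 1, 2 and 3. The ranks thus differed little between replicates. A further summit, in a region with the same borders (2L:19575532-19576088), lay 393 bp upstream of that TSS with a signal of 549.7 and ranks of 1313, 3432 and 895.

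The distal TSS of spi lies 386 bp from the TSS of msb1l. Its summits 67 and 273 bp upstream, with signals of 506.4 and 462.4, also lay 319 and 113 bp from that of msb1l, so the peaks do not tell which gene they belong to. In replicate 2 both fell in the same region, with rank 1280, and in replicates 1 and 3 they had regions of their own, ranked 1778 and 1232 for the nearer and 2028 and 1683 for the farther. The proximal TSS had a summit 341 bp upstream, with a signal of 354.2 and ranks of 3165, 2385 and 2393.

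Krn encodes Keren, a ligand of the Spitz type. Krn (FBgn0052179, 3L:17649562-17654280, minus strand) had 5 summits in 14.7 kb, 3.40 per 10 kb, close to the 3.41 of aop, the densest member. The promoter summit lay 150 bp upstream of the TSS with a signal of 1009.1, rank 374 of the optimal list and ranks of 551, 356 and 410 in replicates 1, 2 and 3. Ndfip, an adaptor gene for Nedd4 family ubiquitin ligases, is annotated with the same TSS on the same strand. The promoter peak thus does not tell which of these genes it belongs to. A second peak lay 4331 bp upstream, with a signal of 467.1 and ranks of 2174, 2225 and 1101. The others were weaker: a summit in the intron, also within the span of Ndfip (signal 186.5), a summit 3593 bp upstream (signal 132.3; ranks 12049, 6511 and 8936) and a summit in the downstream flank, 59 bp from the TSS of Pep (signal 273.7). The 3593 bp summit ranked past 7827 in replicates 1 and 3.

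The gene vn encodes Vein, a secreted neuregulin-like ligand. In vn (FBgn0003984, 3L:5813338-5845664, minus strand) 3 of 4 summits lay in introns, 16753, 21458 and 26188 bp downstream of the only TSS. Their signals were 233.8, 219.1 and 208.0. The region nearest the TSS ranked 4759, 3788 and 5120 in replicates 1, 2 and 3, the middle region 3696, 5307 and 3875, and the farthest 4895, 5394 and 4798. All 9 ranks lay between 3696 and 5394. The fourth summit lay just past the 3′ end, 101 bp from the TSS of mad2, a spindle checkpoint gene, with a signal of 170.3. At the vn TSS itself the best pooled region ranked 13581.

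The ligand-processing genes differed from each other. The gene rho encodes Rhomboid, the intramembrane protease that cuts the Spitz precursor, and S encodes Star, which carries the precursor out of the endoplasmic reticulum. In rho (FBgn0004635, 3L:1463811-1468944, plus strand) the only summit lay 745 bp downstream of the TSS in an intron, a place that is also within the larger gene Ptp61F. Its signal was 170.8, and its region ranked 6230, 5409 and 6432 in replicates 1, 2 and 3. That is the weakest of the members' strongest summits. In contrast S (FBgn0003310, 2L:1049674-1077815, minus strand) had 6 summits, 5 of them in introns, and 2.59% of protein-coding genes, of any length, had at least as many. Its window is longer, 38.1 kb against 15.1 kb at rho, and the densities were 1.57 and 0.66 summits per 10 kb.

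The summits of S were strongest near the 5′ end, but not at it. At 1864 bp downstream of the nearest TSS the signal was 780.0, with ranks of 903, 806 and 479 in replicates 1, 2 and 3. At 3124 bp it was 496.9, with ranks of 1604, 1632 and 1414, and at 5443 bp 399.2, with ranks of 1386, 3669 and 1560. Farther in, the signals were 165.8 at 7306 bp and 285.7 at 14730 bp. The downstream flank added a summit with a signal of 136.6, 583 bp from a TSS of IA-2. The TSSs of S lie 133 and 137 bp from that of the neighbouring gene ast. That shared stretch had no optimal summit, and its best pooled region ranked 8944.

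The inhibitor gene aos held the strongest member peaks after that of spi. It encodes Argos, a secreted protein that binds Spitz and keeps it from the receptor, and it is a target of the pathway. In aos (FBgn0004569, 3L:16470386-16483650, minus strand) the strongest summit lay in the intron 3102 bp downstream of the TSS, with a signal of 1272.6, rank 226 of the optimal list and ranks of 357, 244 and 198 in replicates 1, 2 and 3. The promoter summit lay 319 bp upstream, with a signal of 1012.0 and ranks of 152, 236 and 1436. Replicate 3 thus placed the promoter region far below the intronic region, while replicate 1 placed it above. Weaker summits lay 9323 bp downstream (signal 231.6) and 3020 bp upstream (signal 153.1; ranks 18340, 9778 and 4589). All 4 summits also lie within the span of the gene CG33158.

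The gene sty encodes Sprouty, an intracellular inhibitor of receptor tyrosine kinase signalling that the pathway induces. In sty (FBgn0014388, 3L:3401153-3424935, minus strand) neither of 2 TSSs had an optimal summit within 500 bp. Introns held 3 summits, with signals of 131.6, 235.3 and 267.8. The downstream flank held 2, the weaker with a signal of 161.4. The other was the strongest peak of sty, with a signal of 507.9 and ranks of 944, 1647 and 1370 in replicates 1, 2 and 3. That summit lay 4874 bp past the gene's end, the member summit nearest to the 5 kb limit from inside. The nearest from outside lay 5004 bp from vn, with a signal of 239.0.

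The nuclear factor genes held 25 of the 57 summits. The gene pnt encodes Pointed, the ETS activator that MAP kinase switches on. In pnt (FBgn0003118, 3R:23290231-23346167, minus strand), the longest member at 55937 bp, there were 14 summits, a number that 18 of 13945 protein-coding genes (0.129%) reached or passed. None lay within 500 bp of its 3 TSSs. Introns held 13 and the upstream flank held 1, 905 bp from the distal TSS. Signals ran from 130.5 to 437.5, so the peaks were many and moderate. Within 5 kb, 6 of them stood together 10373 to 14630 bp downstream of the distal TSS, with signals of 284.7, 190.5, 236.1, 156.5, 333.5 and 130.5. The regions of the summits with signals of 156.5 and 333.5 overlap, and in replicate 3 both fell in the same region.

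The strongest summit of pnt lay between its distal and middle TSSs, 12174 bp upstream of the latter, with ranks of 2029, 1896 and 1541 in replicates 1, 2 and 3. The summit with a signal of 333.5 had ranks of 1868, 2575 and 3732, and that with 284.7 had ranks of 7257, 2382 and 4501, so replicate 1 placed the former highest and the latter lowest. The best pooled region at the middle TSS ranked 8601, and the distal TSS had no pooled region at all within 500 bp. By number of summits in promoter, introns, other exons and flanks, the genes most like pnt were fz2 (differing by 1 summit), hth and tou (by 2 each), compared in the optimal list of the 3 replicates.

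The gene aop encodes Yan, the ETS repressor that competes with Pointed and is removed when MAP kinase is active. In aop (FBgn0000097, 2L:2156484-2178754, minus strand) there were 11 summits in 32.3 kb, and 49 protein-coding genes (0.351%) had at least as many. Each lay within 5844 bp of a TSS. At the distal TSS, the strongest summit of the gene lay 1520 bp upstream, with a signal of 634.9 and ranks of 1206, 965 and 712 in replicates 1, 2 and 3. Another lay 843 bp upstream, with a signal of 382.8 and ranks of 7069, 2216 and 1360. The promoter summit there, 95 bp upstream, was weak, with a signal of 133.9 and ranks of 8843, 7083 and 7640.

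At the proximal TSS of aop the order differed, since the promoter summit was not the weakest nearby. The promoter summit 416 bp upstream had a signal of 386.2 and ranks of 1965, 2086 and 2405. It was the summit nearest to the 500 bp limit from inside, and the nearest from outside, 622 bp upstream of the same TSS, had a signal of 303.2 and shares a merged region with it. A stronger summit lay 2159 bp upstream, with a signal of 531.7 and ranks of 1997, 1708 and 966. At neither TSS was the promoter summit the strongest nearby.

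**Figure D2:**
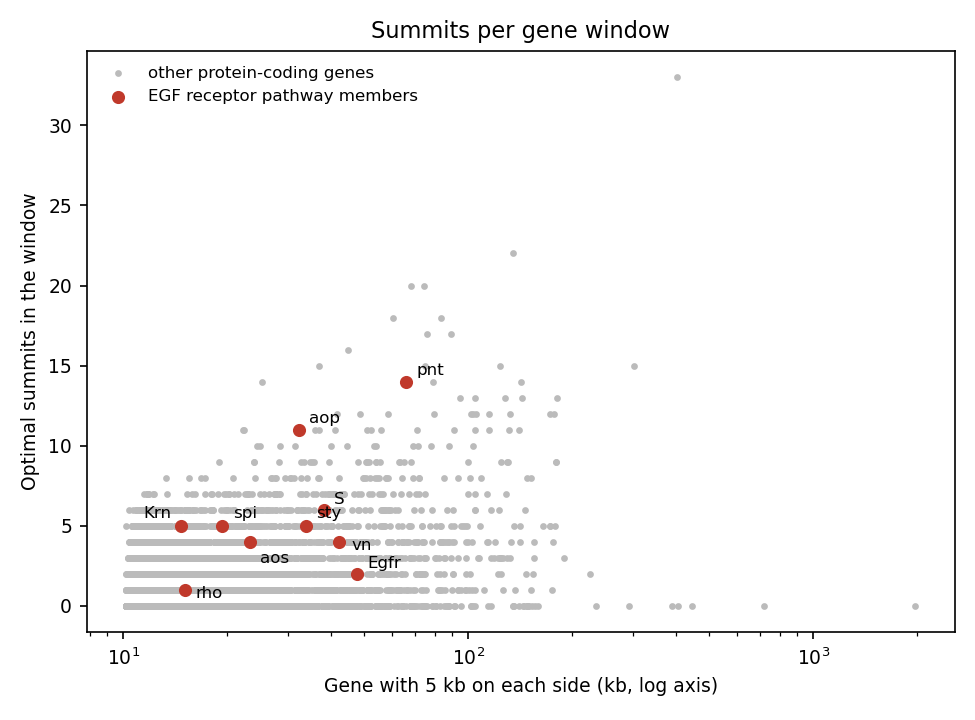
Number of optimal summits in each gene with 5 kb on each side, against the length of that window in kb (log axis), for the 13945 protein-coding genes, with the 10 members in red and the others in grey. With 14 and 11 summits pnt and aop lie high for their length, while Egfr has 2 and rho has 1, the median over all genes.

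The member regions were then compared across replicates. Each of the 57 regions was overlapped by at least 1 bp in the full list of every replicate, as were 98.2% of the optimal list. When every replicate list was cut to its top 7827 regions by signal, 46 of 57 were overlapped in all of them (80.7%), against 74.0% of the optimal list. The optimal list was chosen for reproducibility among these replicates, so all these shares describe it. Replicate 1 overlapped 46 member regions, replicate 2 overlapped 55 and replicate 3 overlapped 54 (51.7 ± 4.93, SD, n = 3). With only the 4000 strongest regions of each, 20 of 57 were found in all (35.1%), against 41.3% of the optimal list, so at that length the members' share lay below that of the whole list. For the median member summit, the worst of its 3 ranks was 1.58 times the best. For 11 summits it was over 2 times, most of all at the aos promoter (9.45 times) and 843 bp upstream of aop (5.20 times).

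**Figure D3:**
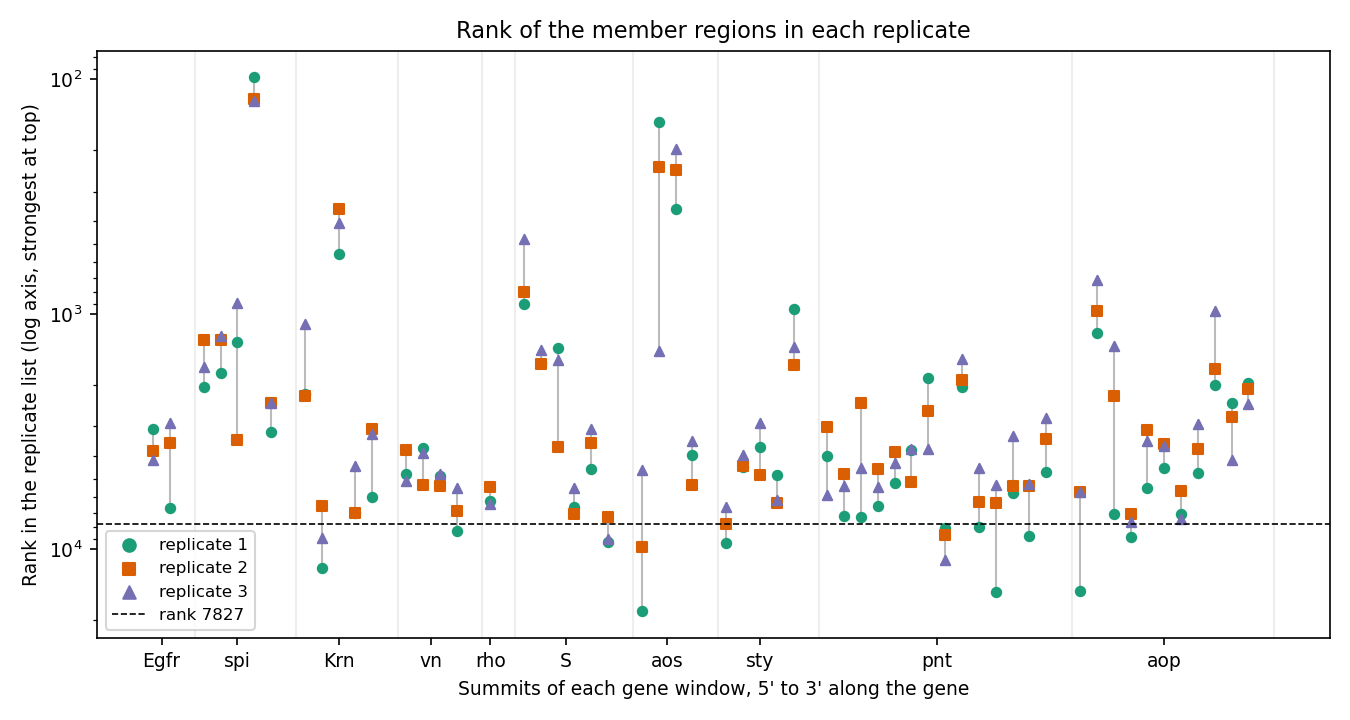
Rank of the region at each member summit in the list of replicate 1 (circles), 2 (squares) and 3 (triangles), on a log axis with the strongest at the top, in order along each gene. The dashed line marks rank 7827, and the leading regions of spi, Krn, S and aos stand above rank 1000 in all 3 replicates.

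Counted in each replicate's own top list, 5, 6 and 6 members had a promoter summit in replicates 1, 2 and 3 (5.67 ± 0.577, SD, n = 3), where 28.1%, 30.0% and 30.4% of all protein-coding genes did. The 4 genes spi, Krn, aos and aop were among them each time. The others changed: sty in replicate 1 (rank 6004), S (7487) and pnt (7269) in replicate 2, and Egfr (6370) and pnt (7116) in replicate 3. Only vn and rho had no promoter summit in any of these lists. All 10 members had a summit in their window in every replicate, where 59.9%, 62.3% and 63.0% of all protein-coding genes did in replicates 1, 2 and 3. The summits numbered 55, 64 and 59 (59.3 ± 4.51, SD, n = 3). The window of pnt held 11, 14 and 13, and that of aop 9, 12 and 12, so these led in each replicate. At rho the count was 1 each time.

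Other genes of the pathway were bound at promoters about as often as the members. Of 38 further genes, 15 had a promoter summit (39.5%, against 30.2% of all protein-coding genes) and 29 a summit in their window (76.3%, against 62.6%). Most of the 38 are at least as long as the shortest member, and among all genes that long the shares were 39.9% and 76.1%. Both counts thus lay near those of long genes. None of 6 genes of ligands and their processing (grk, ru, stet, rho-4, rho-5 and rho-6) had a promoter summit, and 3 had a summit in the window. In the signal relay, 7 of 12 had a promoter summit. Shc, an adaptor gene, had the strongest, with a signal of 2651.8 and ranks of 42, 28 and 34 in replicates 1, 2 and 3, at a promoter shared with Atat. Ras85D, the Ras gene itself, followed with 617.8 at a promoter shared with Rlb1, then the adaptor gene dos with 406.6, the scaffold gene ksr with 184.3 and the phosphatase gene csw with 183.8.

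Of 9 further inhibitors, 2 had a promoter summit. These were Mkp3, a MAP kinase phosphatase gene (signal 546.9; ranks 1061, 977 and 1751), and Spred, a relative of Sprouty (signal 168.9). Of 11 nuclear factors and targets, 6 did. The corepressor gene gro had a signal of 1253.9 with ranks of 365, 220 and 238, and edl, which encodes an antagonist of Yan, had 648.5 with ranks of 411, 614 and 2710. The others were cic, a repressor gene (444.9), kay, the Fos gene (274.4), Jra, the Jun gene (177.1), and sina, a ubiquitin ligase gene (172.5).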

How the data were processed

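Per the deposited text notes, regions of each replicate, and of the 3 replicates pooled, were called against a control, and the optimal list was derived from these lists by the irreproducible discovery rate (IDR) procedure, on build dm6. For the aligner, peak caller and threshold, names and settings were not given in the sources used here. Per the labels, chromatin was sonicated to 200 to 800 bp. The signal value is a score deposited by the authors with no stated scale. Here it served to rank regions, and to compare their values, within a list only. Lists on build dm3 were not used. The summit offset and other narrowPeak columns are the authors' own. Depth is unknown, since the lists hold no read counts, and no list is longer than 30000 regions.

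Genes and TSSs came from Ensembl release 115 on the arms 2L, 2R, 3L, 3R, 4 and X. No region runs past an arm end of the Release 6 assembly. A summit got 1 class, in the order own promoter (500 bp), promoter of another protein-coding gene, exon (untranslated or coding), intron, flank. The replicate rank at a summit is that of the overlapping region with the nearest summit. No hypothesis test was run, and the counts stand beside the same counts over all genes or summits. Members and lists were chosen with earlier results of these data known. Named genes are the members, genes with a TSS within 500 bp of a member summit, the 5 further pathway genes of each role with the strongest promoter summit, and the 3 genes most like the member with most summits; sina, grk, ru, stet, rho-4, rho-5, rho-6, Atat, Rlb1, CG30286, CG33158, Ptp61F, IA-2 and ast stand outside this rule and were named after their values or positions were seen. The placing of summits was tested on simulated data. Python 3.11.15 was used.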

Additional observations from a re-analysis of the deposited data

How the results depend on the processing

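Shares in brackets are those over all protein-coding genes or all optimal summits under the same setting. The number of members with a promoter summit, 4 (30.2%), was 3 with a window of 250 bp (24.4%; without aos) and 6 with 1000 bp (34.0%; with rho and pnt added). It was 3 without summits near a TSS of another gene (12.7%; without Krn). It stayed at 4 with any overlap (32.1%), merged regions (29.9%) or the stronger 50% of peaks (19.7%). All 10 members had a summit with flanks of 0 kb (16.1%), 2 kb (48.2%) or 10 kb (74.9%) and with merged regions (62.6%), and 8 did with the stronger 50% of peaks (46.1%; not vn and rho). These shares cover genes of all lengths, many shorter than every member, and with 0 kb the room for a summit is the gene alone. The 57 summits became 40, 51 and 68 with flanks of 0, 2 and 10 kb, 54 with merged regions and 31 with the stronger 50% of peaks, which removes 50% of the optimal list by construction. The 46 member regions found in every replicate were 80.7% of the 57 (74.0%). They became 20, or 35.1%, with the 4000 strongest regions (41.3%), which puts the members below the whole list. They became 57 with the full lists (98.2%), 35, or 61.4%, with a reciprocal overlap of 50% (53.1%) and 43, or 75.4%, with summits within 100 bp (61.9%). Leaving out each replicate gave 46 to 53, the highest without replicate 1 (85.9%). Motif matches at 23 summits (43.0%) became 14 with 25 bp (24.9%) and 34 with 100 bp (68.9%) on each side, as the window searched shrinks or grows. Of the counts of single motifs in these windows, 11 moved by over 1.5 times and 11 did not. Some of the latter were counts of 0 that stayed at 0, as for CCGGAAG and GGTCACACT in both windows. GATAAG went from 6 (5.72%) to 2 with 25 bp (2.98%) and 11 with 100 bp (10.5%), and CGATA from 4 (16.8%) to 2 (9.42%) and 10 (29.6%). No paired analysis was possible because the samples form a single group. Depth is unknown, so a promoter without an optimal summit is not shown to be unbound.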
